A study of Mus musculus with 12 samples.

Results

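The genes described here are 8 mouse genes that write, copy and remove methyl groups on DNA: the DNA methyltransferases Dnmt1, Dnmt3a and Dnmt3b, the maintenance cofactor Uhrf1, the methylcytosine dioxygenases Tet1, Tet2 and Tet3, and the DNA glycosylase Tdg. They were taken by name, and all 8 were found among the 30265 genes of the deposited table and passed the filter on low values. Cytosines that precede a guanine in mammalian DNA often carry a methyl group. DNMT3A and DNMT3B place it on unmethylated DNA, while DNMT1, brought to newly replicated DNA by UHRF1, copies the existing pattern onto the new strand. The TET enzymes oxidise the methyl group to hydroxymethylcytosine and then to forms that TDG cuts out, after which base excision repair restores an unmodified cytosine. In the mouse intestine, Dnmt1 is known as a gene of dividing crypt cells, and Tet1 has been studied in Lgr5-expressing stem cells.

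The study sorted intestinal epithelial cells of C57Bl/6 mice by a Sox9-GFP signal into 4 populations, which the labels call Sox9 High, Low, Sublow and Negative. Each population has 3 RNA-seq libraries, labelled A, B and C, and each library was made from 12000 sorted cells, depleted of ribosomal RNA and read from 1 end. No population was treated. The age and sex of the mice, the construct behind the Sox9-GFP signal, the gates, and whether a library pools animals are not stated in the labels. Nothing in the labels says that the 3 libraries of a population came from separate mice, so the p-values measure the spread between libraries, which may be technical.

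The libraries held between 11630042 and 17046944 counted reads, and 3 reads, the limit that a count of 0 allows, were worth 2.38 to 4.61 normalised counts. All values below are the authors' normalised read counts unless another scale is named. Sox9 itself was ordered as the labels say, with mean normalised counts falling from 20262 (High) through 6601 (Low) and 2084 (Sublow) to 604 (Negative). The summed markers of epithelium lay between 65886 and 176166 in every library, with none of the 6 genes at 0. Summed crypt base stem cell markers were highest in Low (60694 to 80144), enteroendocrine markers (337787 to 544304) and tuft markers (75164 to 78742) in High, goblet markers in Sublow (332952 to 573519, overlapping 136356 to 475894 in Low), and enterocyte markers (439237 to 671899) and Paneth markers (37768 to 101527) in Negative. Of 4 lists of markers of cells outside the epithelium, 3 had their highest sums in High. There the 10 leukocyte markers summed to 2098 to 3484, against 188 to 294 in the other 9 libraries, the 8 stroma and muscle markers to 3077 to 4784 against 243 to 1196, and the 7 markers of enteric neurons and glia to 1660 to 1995 against 202 to 553. Not every stroma and muscle marker rose with its sum. Of those 8, 2 did not exceed 3 reads in any High library, against 0 in Low, 0 in Sublow and 1 in Negative. The 5 endothelial markers summed to 936 to 1154 in High and 945 to 1160 in Negative, against 648 to 882 in Low and Sublow. Their part in the High values below was not tested.

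Among the 4 populations, 7 of the 8 genes differed (limma across all libraries, adjusted p below 0.05), where 69.5% of the 16577 genes tested did, and Tdg was the exception. With libraries scaled to equal totals or to equal quantiles, 7 passed as well, but Tdg was among them and Tet3 was not. Over all genes 12186 and 12045 of 16577 passed there. The maintenance pair Dnmt1 and Uhrf1 had its highest levels in Low and Sublow and its lowest in High and Negative. Dnmt3a was highest in High, and its 9 other libraries lay between 1631 and 2186 normalised counts. Tet1 was high in High and Low and fell in Sublow and further in Negative, and Tet3 had its highest mean in Negative.

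Against Low, 5 of the 8 genes passed the threshold in High, where 42.9% of all tested genes did; 2 were higher (23.6% of all genes) and 3 lower (19.3%). In Negative against Low 6 passed, where 57.2% of all genes did; 2 were higher (26.8%) and 4 lower (30.3%). This split moved with the scaling: equal library totals gave 0 higher and 6 lower, with Tet2 and Tet3 lost and Dnmt3a and Tdg gained. The calls over all 16577 genes moved the same way there, to 2441 higher and 8049 lower, from 4446 and 5028. Quantile scaling gave 1 higher and 6 lower, where 4819 of all genes were higher and 4785 lower. In Sublow against Low 1 passed, where 24.0% of all genes did, and it was lower (10.7%, against 13.3% higher). Leaving out Sublow C, 3 passed in Sublow against Low, namely Tet1, Tet2 and Tet3, where 5604 of 16531 genes tested did. These 3 comparisons share the Low libraries and are not independent of each other. In High against Negative 4 of the 8 passed (54.6% of all genes), 3 higher (28.8%) and 1 lower (25.8%). With equal library totals 6 passed, all higher, where 7423 of all genes were higher and 2588 lower. With quantile scaling 2 passed, both higher, where 4467 of all genes were higher and 5173 lower. In Sublow against Negative 5 passed (27.7%), 4 higher (15.1%) and 1 lower (12.7%), and in High against Sublow 5 (52.0%), 3 higher (26.7%) and 2 lower (25.3%). Without Negative B, and likewise without Negative C, 3 passed in Sublow against Negative, namely Dnmt1, Dnmt3b and Uhrf1. Over all genes 1748 of 16488 passed without Negative B, and 3379 of 16474 without Negative C. The 3 libraries of each side did not overlap for 6 genes in High against Low (60.7% of all genes), 6 in Negative against Low (66.5%), 3 in Sublow against Low (37.0%), 4 in High against Negative (64.9%), 7 in Sublow against Negative (39.8%) and 5 in High against Sublow (58.6%).

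**Figure D1:**
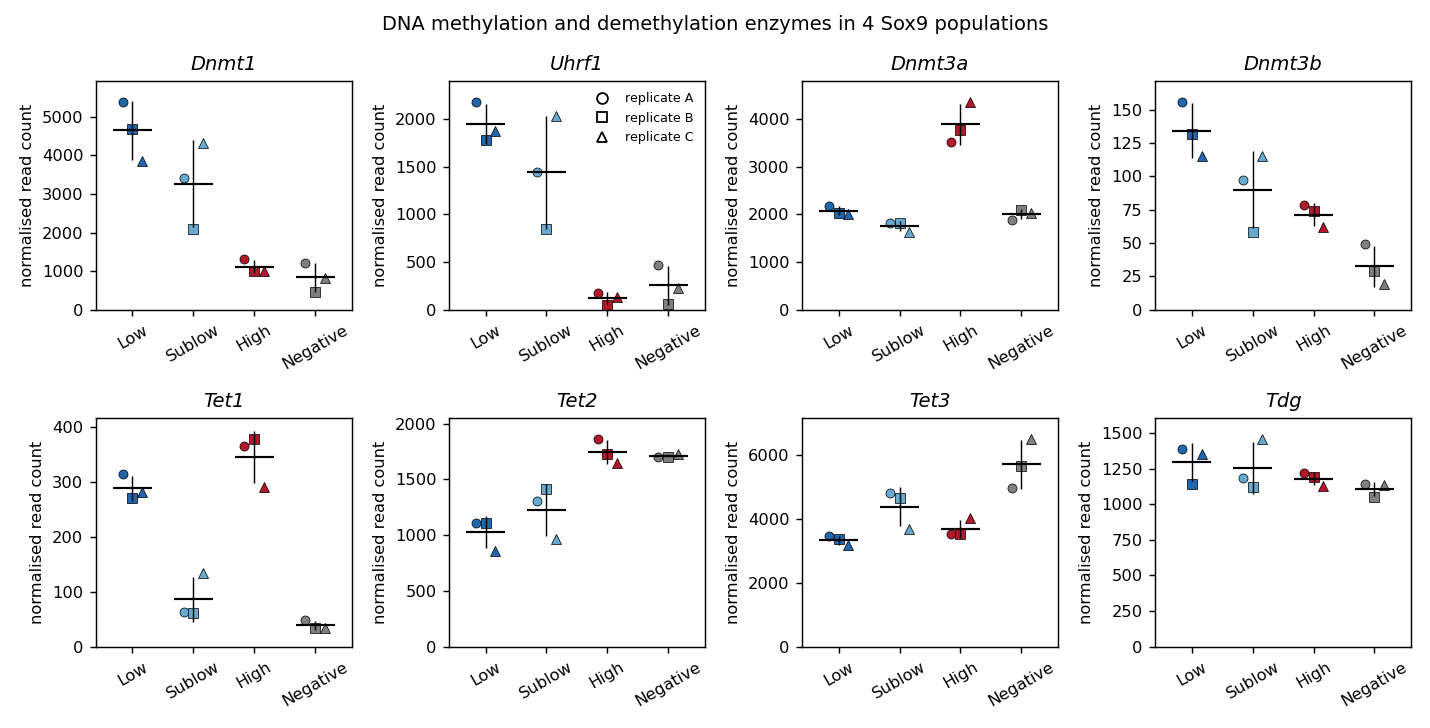
Normalised read count (vertical axis, from 0) of each of the 8 genes in the 4 Sox9 populations (horizontal axis); points are libraries A, B and C, the wide bar is their mean and the thin bar 1 SD to each side. Dnmt1 and Uhrf1 sit high in Low and Sublow, Dnmt3a in High, Tet1 in High and Low, and the Tdg libraries all lie between 1053 and 1464.

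Dnmt1 and Uhrf1 stand together in the maintenance step. Both carry, in a promoter window taken from RefSeq (build GRCm38.p6, 250 bases before to 50 after an annotated start), a match to a word bound by E2F factors, which switch on genes of DNA replication. The words searched were TTTCCCGC, TTTGGCGC, TTTGCCGC and TTTCGCGC on either strand. They are shown because these were the only 2 of the 8 genes with such a word, while 2.26% of 32851 windows and 4.21% of the 11675 tested genes with a window held one. Among the 19 genes with a window in a list of 24 S phase genes, 8 (42.1%) held one. The word is in capitals, and the Uhrf1 stretch is the whole 250 bases before the start, from 5′ to 3′ on the strand of the gene:
Dnmt1, chr9:20952824-20952853, minus strand: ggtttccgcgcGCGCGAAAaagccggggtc
Uhrf1, chr17:56304063-56304312, plus strand: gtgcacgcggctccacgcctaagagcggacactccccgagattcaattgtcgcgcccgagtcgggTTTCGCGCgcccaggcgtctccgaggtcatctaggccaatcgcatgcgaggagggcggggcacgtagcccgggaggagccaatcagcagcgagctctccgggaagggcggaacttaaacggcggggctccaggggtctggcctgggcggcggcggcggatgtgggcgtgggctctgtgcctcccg
In Dnmt1 the word begins 219 bases before that start, reads on the opposite strand and lies in an exon of a longer annotated transcript. A second word, TTTGGCGC, lies 33 bases after the same start. In Uhrf1 the word begins 185 bases before the start, outside annotated exons. A match of letters is a description and does not show that a factor binds there.

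Dnmt1, the maintenance methyltransferase, was at 5387, 4688 and 3859 normalised counts in Low A, B and C, and at 3415, 2088 and 4309 in Sublow. In High it was at 1317, 1015 and 1017, and in Negative at 1220, 472 and 836. Every Low and Sublow library lay above every High and Negative library, while Low and Sublow overlapped with each other, as did High and Negative. The means were 4645 ± 765 in Low, 3271 ± 1117 in Sublow, 1117 ± 174 in High and 843 ± 374 in Negative (SD, n = 3 each). Against Low, Dnmt1 was 4.15-fold lower in High (log2 difference -2.05, SE 0.32, limma adjusted p = 0.000314) and 5.86-fold lower in Negative (-2.55, adjusted p = 4.00e-05). In Sublow it was 2.83-fold above High (limma adjusted p = 0.0019) and 3.99-fold above Negative (adjusted p = 0.00289). Neither Sublow against Low (log2 difference -0.55, 95% interval -1.25 to 0.15, limma adjusted p = 0.242) nor High against Negative (0.50, adjusted p = 0.212) passed. High against Negative passed with equal library totals (0.99, limma adjusted p = 0.0341) and without Negative A (0.82, adjusted p = 0.0449). Relative to the median of all genes it was 0.48 with equal totals, against 0.47 on the deposited scaling. Sublow against Low passed with library weights (-0.52, limma adjusted p = 0.0479). In bulk RNA, fewer cells that transcribe a gene and less RNA of it per cell cannot be told apart, here and in all results below.

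Uhrf1, which reads hemimethylated DNA and guides DNMT1 to it, had the widest range of the 8 genes. It was at 2180, 1775 and 1878 normalised counts in Low, 1442, 846 and 2034 in Sublow, 474, 66.1 and 225 in Negative and 180, 51.6 and 131 in High. The lowest Sublow library lay above the highest Negative and High libraries. Its means were 1944 ± 210 in Low, 1441 ± 594 in Sublow, 255 ± 206 in Negative and 121 ± 65.0 in High (SD, n = 3 each). Against Low, Uhrf1 was 17.9-fold lower in High (log2 difference -4.17, SE 0.61, limma adjusted p = 0.000205) and lower in Negative too (-3.33, adjusted p = 0.000573). Sublow was 12.5-fold above High (limma adjusted p = 0.000326) and 7.02-fold above Negative (adjusted p = 0.00875), and its difference from Low did not pass (log2 -0.52, 95% interval -1.85 to 0.82, adjusted p = 0.588). The difference between High and Negative was -0.84 on the log2 scale (interval -2.17 to 0.50, limma adjusted p = 0.272). Without Negative B it was -1.60 (limma adjusted p = 0.0186), so that 1 library decides this call.

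Cell cycle genes moved in the same populations as the maintenance pair. The summed level of the 24 S phase genes stood at 76.4% of the Low mean in Sublow, 26.1% in Negative and 17.7% in High, and that of 12 mitosis genes at 76.5%, 17.2% and 8.19%. Dnmt1 stood at 70.4%, 18.1% and 24.0% of its Low mean in the same order, and Uhrf1 at 74.1%, 13.1% and 6.22%. Uhrf1 was thus lower in High than in Negative by its mean, as the S phase and mitosis sums were, whereas Dnmt1 was not. The libraries varied together as well: Sublow B was the lowest Sublow library and Negative B the lowest Negative library for Dnmt1, Uhrf1, both sums and Mki67, a gene of cycling cells. Whether cycling accounts for the Dnmt1 and Uhrf1 differences was not tested.

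**Figure D2:**
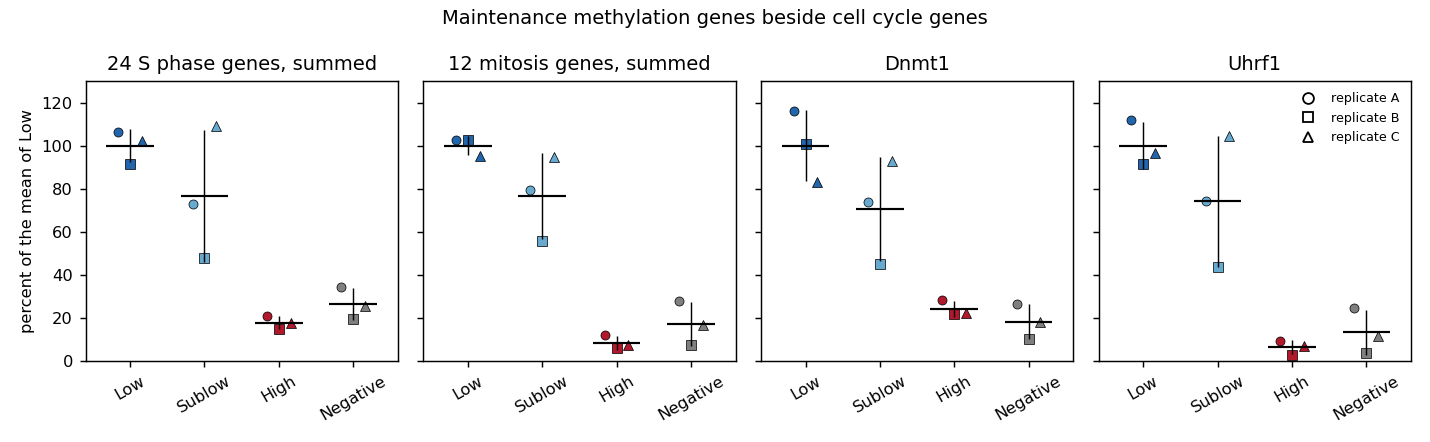
Summed S phase genes, summed mitosis genes, Dnmt1 and Uhrf1 as a percentage of the mean of the 3 Low libraries (vertical axis, from 0) in the 4 populations; points are libraries, wide bars means and thin bars 1 SD. All 4 panels share the order of Low and Sublow above High and Negative, and in Sublow and Negative library B is the lowest in each panel.

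Relative to these genes, the maintenance pair was not constant. Within each library, the log2 ratio of Dnmt1 to the summed S phase genes averaged -1.78 for High, -2.24 for Low, -2.33 for Sublow and -2.82 for Negative, a difference among populations by an exact permutation test of F (adjusted p = 0.0023 over 6 ratios). All 3 High libraries lay above all 9 others, and all 3 Negative libraries below them. The log2 ratio of Uhrf1 to the same sum averaged -3.49 in Low, -3.54 in Sublow, -4.84 in Negative and -5.14 in High (exact permutation, adjusted p = 0.0414). It ranged from -5.96 to -3.96 over the Negative libraries and from -5.94 to -4.62 over the High libraries, so these populations overlapped. The call for Uhrf1 was lost in 10 of the 12 fits that left out 1 library. The ratio of Dnmt1 to Uhrf1 was 2.38 in Low, 2.31 in Sublow, 4.06 in Negative and 10.3 in High as back-transformed log2 means, with log2 means of 1.25, 1.21, 2.02 and 3.36 (exact permutation, adjusted p = 0.0023). These ratios are of normalised counts and are not corrected for transcript length.

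Dnmt3a, the main de novo methyltransferase of adult tissues, was at 3524, 3778 and 4359 normalised counts in High. It was at 2186, 2030 and 2018 in Low, 1809, 1822 and 1631 in Sublow and 1891, 2101 and 2032 in Negative. Every High library lay above every library of the other populations. The High mean of 3887 ± 428 compared with 2078 ± 93.8 in Low, 2008 ± 107 in Negative and 1754 ± 107 in Sublow (SD, n = 3 each). Dnmt3a was 1.86-fold higher in High than in Low (log2 difference 0.90, SE 0.11, limma adjusted p = 7.29e-05), 1.93-fold higher than in Negative (0.95, adjusted p = 1.58e-05) and 2.21-fold higher than in Sublow (1.14, adjusted p = 4.96e-06). Negative against Low did not pass (log2 -0.05, 95% interval -0.30 to 0.20, limma adjusted p = 0.73), nor did Sublow against Low (-0.25, interval -0.49 to 0.00, adjusted p = 0.144). These intervals hold for the deposited scaling only. With equal library totals Dnmt3a was lower in Negative (-0.61, limma adjusted p = 0.000651) and in Sublow (-0.52, adjusted p = 0.00752) than in Low. With quantile scaling it was lower too (-0.49 in each, limma adjusted p = 0.00208 and 0.00675). Equal totals also moved the median of all genes, to -0.60 in Negative and -0.33 in Sublow against Low. Relative to the median of all genes, Dnmt3a was -0.01 and -0.19 with equal totals, and -0.54 and -0.48 with quantile scaling. The sums of enteroendocrine, tuft, leukocyte, stromal and neuronal markers were also highest in High, as given above. Their part in the Dnmt3a values was not tested.

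Dnmt3b, the second de novo enzyme, was the least abundant methyltransferase, with 17 to 154 reads in a library. Its normalised counts were 156, 132 and 115 in Low, 97.0, 58.1 and 115 in Sublow, 78.5, 73.7 and 61.7 in High and 49.6, 29.2 and 19.4 in Negative. All 3 Negative libraries lay below all 9 others. Means were 134 ± 20.5 in Low, 90.1 ± 29.1 in Sublow, 71.3 ± 8.67 in High and 32.7 ± 15.4 in Negative (SD, n = 3 each). Dnmt3b was lower in Negative than in Low by 4.26-fold (log2 difference -2.09, SE 0.34, limma adjusted p = 0.000227), than in Sublow by 2.78-fold (adjusted p = 0.0106) and than in High by 2.28-fold (adjusted p = 0.00974). The difference from High was lost with quantile scaling (log2 0.46 for High against Negative, limma adjusted p = 0.234), and that from Sublow in a fit of those 6 libraries alone (adjusted p = 0.0872). High against Low was 1.87-fold lower (log2 -0.90, limma adjusted p = 0.0491), a call that 11 of 25 alternatives lost, with adjusted p up to 0.144. Sublow against Low did not pass (-0.61, limma adjusted p = 0.219), and neither did High against Sublow (-0.28, adjusted p = 0.509).

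The 2 de novo genes therefore followed different orders: Dnmt3a was highest in High and Dnmt3b in Low. The log2 ratio of Dnmt3a to Dnmt3b within a library averaged 3.95 in Low, 4.32 in Sublow, 5.75 in High and 5.99 in Negative (exact permutation test of F, adjusted p = 0.0076). All High and Negative libraries, from 5.22 up, lay above all Low and Sublow libraries, which reached 4.95.

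**Figure D3:**
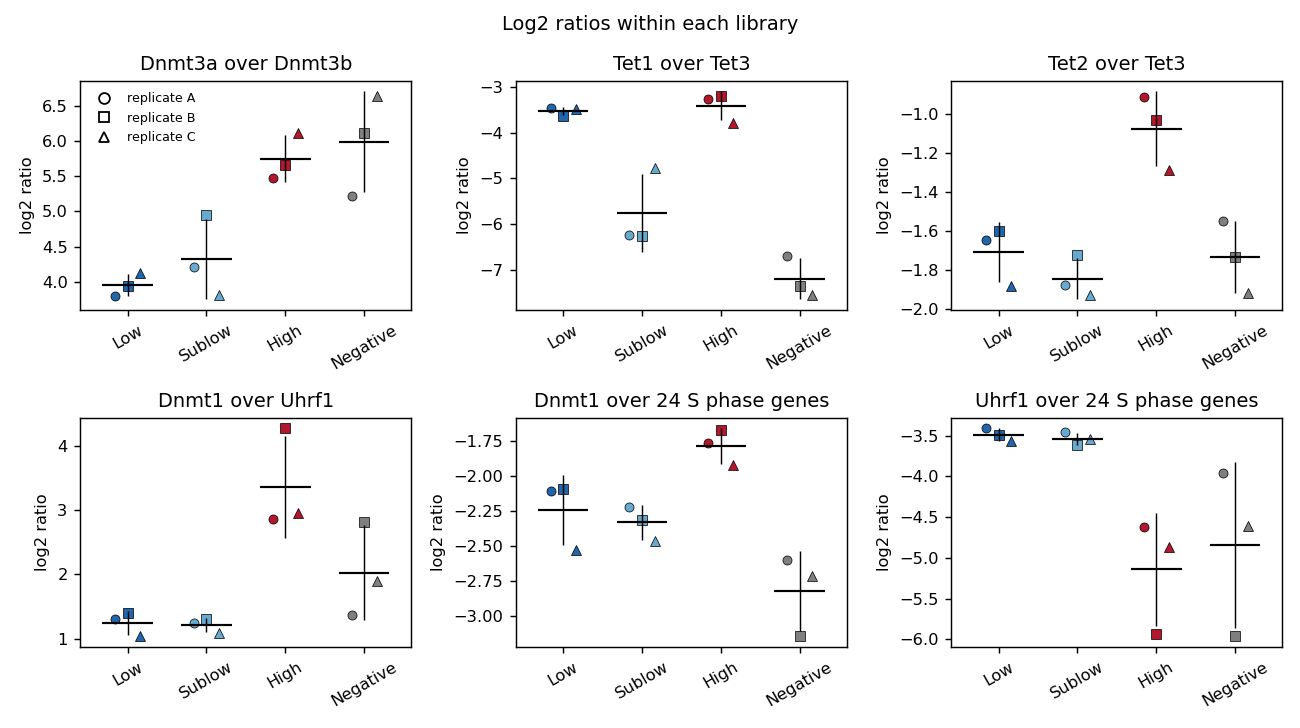
Log2 ratio within each library (vertical axis) for 6 pairs in the 4 populations; points are libraries, wide bars means and thin bars 1 SD. The Dnmt3a to Dnmt3b ratio separates Low and Sublow from High and Negative, the Tet1 to Tet3 ratio separates High and Low from Sublow and Sublow from Negative, and the Tet2 to Tet3 ratio is highest in High.

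Of the dioxygenases, Tet1 had the largest differences. It was at 364, 379 and 291 normalised counts in High and at 314, 270 and 281 in Low. The Sublow libraries held 63.3, 60.4 and 134, and the Negative libraries 47.5, 33.8 and 34.2. High and Low overlapped, every Sublow library lay below them, and every Negative library below Sublow. The means were 345 ± 47.3, 288 ± 22.8, 85.7 ± 41.4 and 38.5 ± 7.79 (SD, n = 3 each). Tet1 was lower than in Low by 3.56-fold in Sublow (log2 difference -1.83, SE 0.28, limma adjusted p = 0.00103) and by 7.39-fold in Negative (-2.89, adjusted p = 9.26e-06). It was the only one of the 8 genes that passed in Sublow against Low. Against High, it was 4.24-fold lower in Sublow (limma adjusted p = 5.98e-05) and 8.79-fold lower in Negative (adjusted p = 1.31e-06). High against Low did not pass (log2 0.25, 95% interval -0.36 to 0.86, limma adjusted p = 0.506).

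Sublow C, with 134 normalised counts of Tet1, stood apart from the other Sublow libraries (63.3 and 60.4), and it was also the highest Sublow library for Dnmt1, Uhrf1 and the S phase sum. Sublow against Negative passed for Tet1 (2.07-fold higher, limma adjusted p = 0.0193) and was lost in 4 of 24 alternatives, with adjusted p up to 0.118. The crypt base stem cell markers, which Low held at the highest level, summed to 7314 to 33864 in Sublow, 4050 to 9434 in High and 1339 to 5168 in Negative. The Tet1 libraries of High and Low overlapped, and their stem cell marker sums did not. The part of stem cell content in the Tet1 values was not tested.

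Tet2 was at 1866, 1723 and 1646 normalised counts in High and 1703, 1701 and 1725 in Negative. It was at 1305, 1409 and 966 in Sublow and 1105, 1111 and 861 in Low. All High and Negative libraries lay above all Sublow and Low libraries. The means were 1745 ± 112, 1710 ± 13.5, 1226 ± 232 and 1025 ± 143 in that order (SD, n = 3 each). Tet2 was higher than in Low by 1.71-fold in High (log2 difference 0.77, SE 0.15, limma adjusted p = 0.0015) and by 1.68-fold in Negative (0.75, adjusted p = 0.0012). High exceeded Sublow by 1.44-fold (limma adjusted p = 0.0121), while Negative against Sublow passed at 1.41-fold (adjusted p = 0.0321) and was lost in 9 of 24 alternatives. Neither High against Negative (log2 0.03, limma adjusted p = 0.896) nor Sublow against Low (0.25, adjusted p = 0.271) passed. Equal library totals moved the median of all genes in Negative against Low by -0.55. With them the Tet2 difference there was 0.19 (limma adjusted p = 0.292), and High against Negative passed at 0.52 (adjusted p = 0.00932). Relative to the median of all genes, these 2 differences were 0.79 and 0.01, against 0.80 and 0.00 on the deposited scaling.

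Tet3 was the most abundant of the 3 dioxygenase genes in every population. It was at 4983, 5656 and 6524 normalised counts in Negative, 4800, 4663 and 3686 in Sublow, 3516, 3519 and 4016 in High and 3462, 3366 and 3179 in Low. Every Negative library lay above every other, and every Low library below every other. Means were 5721 ± 772 in Negative, 4383 ± 607 in Sublow, 3684 ± 288 in High and 3336 ± 144 in Low (SD, n = 3 each). Negative was 1.71-fold above Low (log2 difference 0.77, SE 0.14, limma adjusted p = 0.000492) and 1.55-fold above High (0.63, adjusted p = 0.00196). Neighbours in this order did not differ beyond their spread by the test: Negative against Sublow gave a limma adjusted p of 0.0573, Sublow against High 0.162 and High against Low 0.443. Both calls depended on scaling. With equal library totals the difference from Low was 0.21 (limma adjusted p = 0.209) and that of High from Negative -0.14 (adjusted p = 0.408). With quantile scaling they were 0.19 (limma adjusted p = 0.223) and -0.12 (adjusted p = 0.432). Relative to the median of all genes, they were 0.81 and -0.64 with equal totals, against 0.83 and -0.65 on the deposited scaling. With quantile scaling they were 0.14 and 0.03 relative to that median.

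A ratio within a library is not changed by a single factor per library, such as equal totals, though quantile scaling can change it. The log2 ratio of Tet1 to Tet3 averaged -3.42 for High, -3.53 for Low, -5.75 for Sublow and -7.19 for Negative (exact permutation test of F, adjusted p = 0.0023), so that Tet1 and Tet3 moved apart from Low to Sublow to Negative. Sublow ranged from -6.25 to -4.78 and Negative from -7.53 to -6.68, with no overlap. The log2 ratio of Tet2 to Tet3 averaged -1.08 in High, against -1.71 in Low, -1.85 in Sublow and -1.73 in Negative (exact permutation, adjusted p = 0.0111). The High libraries, from -1.29 to -0.91, lay above all 9 others.

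Tdg, which removes the oxidised bases that the TET enzymes make, had the narrowest range of means of the 8 genes on the deposited scaling. Its normalised counts were 1390, 1143 and 1356 in Low, 1188, 1121 and 1464 in Sublow, 1218, 1193 and 1129 in High and 1144, 1053 and 1134 in Negative. Every pair of populations overlapped. The means ran from 1296 ± 134 in Low to 1110 ± 49.6 in Negative (SD, n = 3 each), and no comparison passed, with 0.419 as the limma adjusted p of any difference among the 4 populations. The 95% intervals of the differences on that scaling were -0.41 to 0.15 on the log2 scale for High against Low, -0.33 to 0.23 for Sublow against Low and -0.50 to 0.06 for Negative against Low. Other scalings gave other calls. With equal library totals, Tdg was lower in Negative than in Low (-0.78, limma adjusted p = 0.00104) and than in High (0.58 for High against Negative, adjusted p = 0.00741). With quantile scaling it was lower in Negative than in Low (-0.52, limma adjusted p = 0.00568). Relative to the median of all genes, the 2 differences with equal totals were -0.18 and 0.07, against -0.16 and 0.06 on the deposited scaling. The difference with quantile scaling was -0.57 relative to that median. Tdg shares 367 exon bases with Glt8d2 on the opposite strand, which averaged 47.5 normalised counts, and its processed pseudogene Tdg-ps averaged 12.9; the strand setting of the counting is not given in the sources used here.

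**Figure D4:**
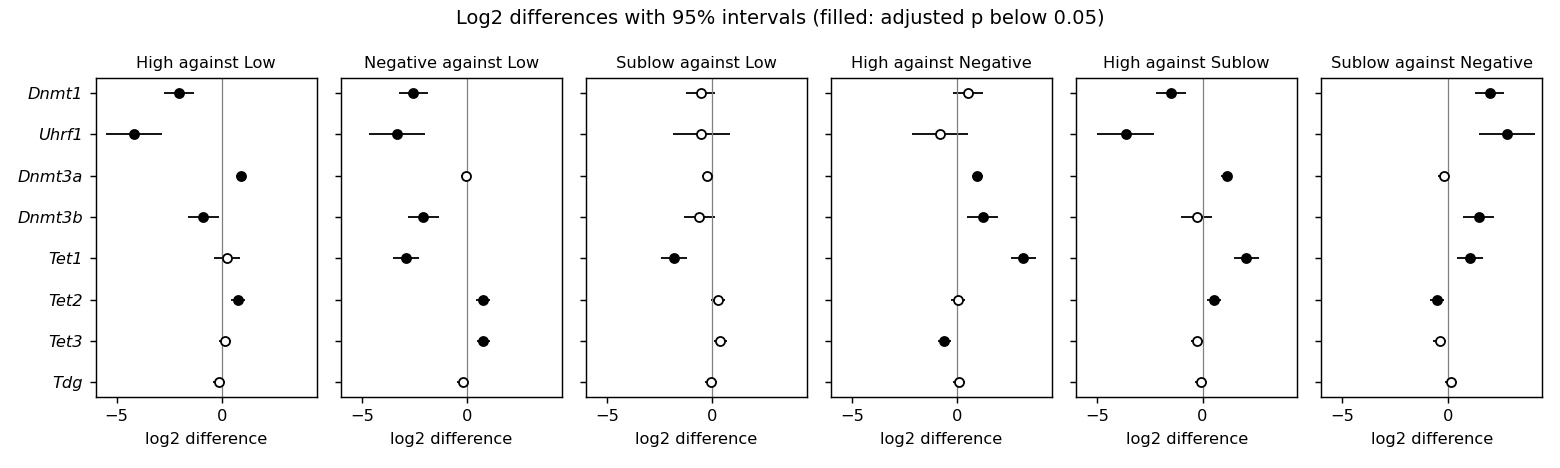
Log2 difference (horizontal axis) with its 95% interval for the 8 genes in the 6 comparisons of populations, from limma; filled points have an adjusted p below 0.05. Uhrf1 and Dnmt1 lie far left in High and Negative against Low, Tet1 is the only filled point in Sublow against Low, and Tdg is open in every comparison.

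Levels can be compared between genes only per length, here as normalised counts per kilobase of annotated exon (GENCODE M21). In Low, Dnmt1 was the highest at 630 per kilobase, followed by Uhrf1 at 457, Tdg at 241, Tet3 at 200, Dnmt3a at 125, Tet2 at 60.8, Dnmt3b at 26.3 and Tet1 at 18.6. In High the 3 highest were Dnmt3a at 234 ± 25.7, Tet3 at 221 ± 17.2 and Tdg at 220 ± 8.59 per kilobase (SD, n = 3), which do not differ beyond that spread, and Uhrf1 was at 28.4. Sublow was led by Dnmt1 at 443, as Low was. In Negative, Tet3 led at 343 per kilobase and Tet1 was the lowest at 2.49. Tet1 or Dnmt3b was the lowest of the 8 genes per kilobase in each population.

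As a share of the 3 methyltransferase genes per kilobase, Dnmt1 made up 80.5% ± 1.80 in Low, 77.1% ± 6.50 in Sublow, 45.8% ± 12.4 in Negative and 37.9% ± 5.45 in High (SD, n = 3 each). Dnmt3a made up 16.2% in Low, 19.8% in Sublow, 51.6% in Negative and 58.6% in High, so that it was the largest part in High. In Negative the SDs of Dnmt1 and Dnmt3a, 12.4 and 12.5 percentage points, left their order unresolved. Dnmt3b stayed between 2.62% and 3.51% on average. Within the Tet family, Tet3 was the largest part everywhere, from 63.7% ± 3.32 in High to 77.0% ± 0.880 in Sublow. Tet1 made up 6.69% ± 0.488 in Low and 6.46% ± 1.05 in High, against 1.73% ± 1.11 in Sublow and 0.569% ± 0.171 in Negative, and Tet2 made up 29.9% in High and 21.2% to 22.9% in the others. These shares depend on the annotated lengths, which count every exon of a gene whether or not it is used here.

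**Figure D5:**
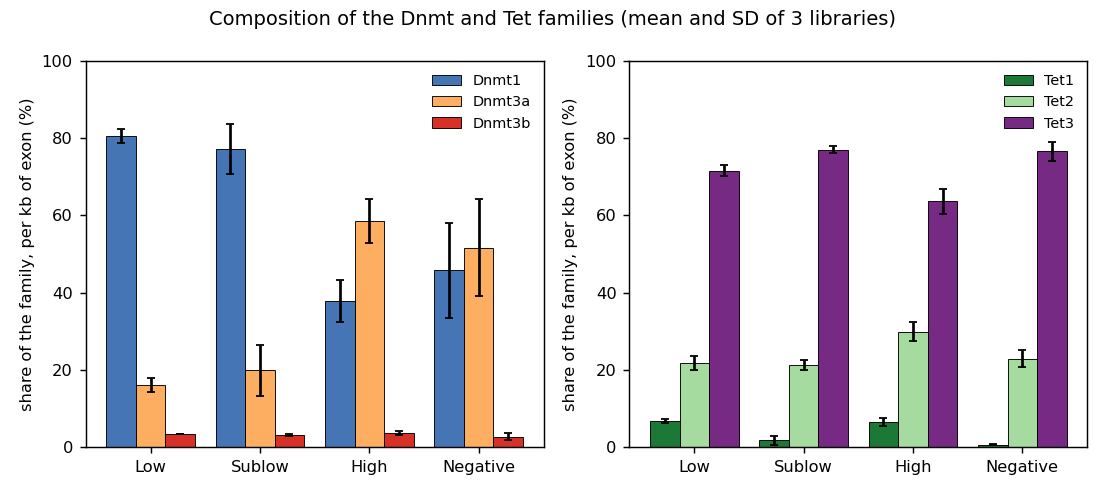
Share of each gene in its family's total of normalised counts per kilobase of exon (vertical axis, percent, from 0) in the 4 populations; bars are means of 3 libraries and error bars 1 SD. Dnmt1 falls from 80.5% in Low to 37.9% in High while Dnmt3a goes from 16.2% to 58.6%, and Tet1 is at 6.69% in Low and 0.569% in Negative.

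Over the 12 libraries, the members' log2 levels were related in 2 directions, described here without a test because the 12 libraries fall into 4 populations of 3. Dnmt1 ran with Uhrf1 (Pearson's r 0.93) and Dnmt3b (0.87), and against Tet2 (-0.86). Tet1 ran against Tet3 (-0.93) and with Dnmt3b (0.72), and had little relation to Uhrf1 (0.09). Dnmt3a and Dnmt3b were nearly unrelated (-0.04). The genes whose pattern was most like each member's were Nucks1, Mybbp1a and Hirip3 for Dnmt1 (r 0.998 to 0.991). They were Ect2, Racgap1 and Kif22, known from cell division, for Uhrf1 (0.996 each). For Tet1 they were Chd6, Ttc21b and Prrc2b (0.993 to 0.987), for Tet2 Ppp6r2, Abcb10 and Lrp12 (0.981 to 0.979) and for Tet3 Lmbrd2, Erbin and Cltc (0.980 to 0.977). Cds2, Pacs2 and Mast4 were nearest to Dnmt3a (0.994 to 0.989), Wdr73, Thoc3 and Acpp to Dnmt3b (0.979 to 0.978), and Ppp1r8, Ccdc43 and Ints13 to Tdg (0.942 to 0.920). Each ranking held 10245 genes (10246 for Dnmt3b), in populations that differ widely, so values this close to 1 are the top of a long list.

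The direct partners of the methyltransferases went mostly the way of Dnmt1. Of 13 partners tested, 8 fell and 0 rose in High against Low, and 9 fell and 0 rose in Negative against Low, with median log2 differences of -0.54 and -0.81 beside 0.10 and -0.05 over all genes, of which 19.3% and 30.3% fell. Hells, the remodeller that opens chromatin to DNMT enzymes, went from 2256 ± 240 normalised counts in Low to 268 ± 80.0 in High (log2 difference -3.10, limma adjusted p = 0.000282) and 383 ± 251 in Negative (-2.82, adjusted p = 0.000312). Cdca7, its activator, went from 3004 ± 324 in Low to 219 ± 77.5 in High (-3.83, limma adjusted p = 1.51e-05) and 406 ± 131 in Negative (-2.92, adjusted p = 5.52e-05). In Sublow against Low, 2 of the 13 fell, Cdca7 (-1.25) and Ehmt1 (-0.39), where 10.7% of all genes did. The count of 2 went from 0 to 7 over the alternatives. Uhrf2, the paralogue of Uhrf1, did not follow it into High: the difference from Low was -0.02 there (limma adjusted p = 0.95), and the difference in Negative was -1.28 (adjusted p = 7.69e-05). Zfp57, Dppa3 and Dnmt3l did not pass the filter, with 20 to 31 reads in all libraries together. The list also holds genes of DNA replication, among them Pcna (-1.69 in High) and Lig1 (-2.47 in High), and the S phase genes fell in the same comparisons.

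Readers of methylated DNA were a short list. Of 9 tested, 4 rose and 2 fell in High against Low (median log2 difference 0.16), where 23.6% of all genes rose and 19.3% fell, and 0 rose and 5 fell in Negative against Low (-0.51), where 26.8% rose and 30.3% fell. Zbtb4, a zinc finger protein that binds methylated CG, was at 1525 ± 42.4 normalised counts in High against 259 ± 40.9 in Low (log2 difference 2.56, limma adjusted p = 5.44e-06). Zbtb38 fell in both, with log2 differences of -1.28 in High and -1.61 in Negative, as did Mbd3 with -0.73 and -0.91. The sums of enteroendocrine, tuft, and neuron and glia markers were also highest in High, as given above. The part of any of these cells in the values of the readers was not tested.

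The listed genes of base excision repair, together with the Gadd45 genes, did not move as 1 group. They were listed for the steps after TET oxidation, and whether each acts on its products was not examined. Of 15 tested, 5 rose and 6 fell in High against Low (median 0.10 on the log2 scale, as for all genes), where 23.6% of all genes rose and 19.3% fell. In Negative against Low 2 rose and 8 fell (-0.63), where 26.8% of all genes rose and 30.3% fell. Ung, the uracil glycosylase of replicating cells, went from 219 ± 9.50 normalised counts in Low to 20.1 ± 4.89 in High (log2 difference -3.41, limma adjusted p = 0.000402) and 24.9 ± 15.0 in Negative (-3.33, adjusted p = 0.000271). Apex1, the endonuclease that cuts the strand after a glycosylase, fell in High (log2 difference -1.59) and Negative (-2.92). The stress genes Gadd45g (1.81) and Gadd45a (1.55) rose in High, and Gadd45a (1.36) and Gadd45b (0.92) in Negative, where the Gadd45b call was lost with equal library totals. Among the other glycosylases, none of which was tested against Tdg, Mbd4 (-1.09) and Neil3 (-1.45) fell in High and again in Negative (-1.80 and -1.88), while Smug1 rose in High (1.15) and fell in Negative (-0.63). Neil1 rose in High (1.26), and Neil2 passed in neither. Sublow against Low had 0 rises and 1 fall among the 15, where 13.3% of all genes rose and 10.7% fell.

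The genes that limit or feed the TET enzymes were the list with the most rises in Negative. Of 15 tested, 8 rose and 5 fell in Negative against Low (median log2 difference 0.60), 5 rose and 2 fell in Sublow against Low (0.27), and 2 rose and 7 fell in High against Low (-0.33). Over all genes 26.8% rose and 30.3% fell in Negative, 13.3% and 10.7% in Sublow, and 23.6% and 19.3% in High. With equal library totals the balance in Negative turned, to 4 higher and 6 lower (median 0.04), and in Sublow to 2 higher and 3 lower (-0.01). Of all 16577 genes, 2441 were higher and 8049 lower in Negative there (median -0.60), and 1306 and 3263 in Sublow (-0.33). Idh1, a cytosolic source of the TET cosubstrate oxoglutarate, was at 6460 ± 1090 normalised counts in Negative against 1084 ± 186 in Low (log2 difference 2.57, limma adjusted p = 6.3e-06). Slc23a2, a vitamin C transporter, was at 3042 ± 377 against 343 ± 101 (3.18, limma adjusted p = 2.1e-05). Cxxc4, which encodes an inhibitor of TET2, went the other way, with means of 831 ± 42.6 (High), 199 ± 13.9 (Low), 24.3 ± 11.5 (Sublow) and 7.75 ± 6.10 (Negative) normalised counts (High against Low 2.06, limma adjusted p = 0.0076, and Negative against Low -4.84, adjusted p = 1.68e-05). Its relative Cxxc5 rose in High (1.61) and fell in Negative (-2.81). In High the falls included Idh3a (-1.64). Idh1 and Idh3a are genes of general metabolism, and Cxxc4 and Cxxc5 are not. Enterocyte markers were highest in Negative, and their part in these differences was not tested.

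The list for the cycle that makes S-adenosylmethionine, the methyl donor, had 3 rises and 5 falls among 14 genes in High against Low (median log2 difference -0.47). It had 2 rises and 7 falls in Negative (-0.84). Over all genes 23.6% rose and 19.3% fell in High, and 26.8% and 30.3% in Negative, so the count of rises in High lay near that of all genes. Shmt1, a serine hydroxymethyltransferase that charges folate, fell in High (log2 difference -3.47, limma adjusted p = 2.82e-05) and Negative (-2.22, adjusted p = 0.00035). Mthfd1, another folate enzyme, fell in High (-2.42), and Mtr, the methionine synthase, in Negative (-2.23). Ahcyl2 rose in both (0.76 and 1.86), and Ahcyl1 rose in Negative (0.97). These were the 2 rises of the list in Negative. Both genes are relatives of Ahcy, and whether they act in this cycle was not examined. Ahcy itself averaged 224 ± 52.8 normalised counts in High, 1025 ± 195 in Low and 800 ± 131 in Negative (SD, n = 3 each). Sublow against Low had 1 rise and 0 falls, where 13.3% of all genes rose and 10.7% fell. For comparison, the S phase genes fell as a whole in High (24 of 24) and nearly so in Negative (23 of 24), and the 12 mitosis genes fell in both, while 0 of either list passed in Sublow against Low.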

How the data were processed

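RNA-seq was made from 12 libraries, 3 of each of 4 populations. The deposited signal values are normalised read counts per gene; per the file headers they are 1 table for all libraries, and no source used here names the aligner, counter, strand setting, annotation or build. The values of each library were whole multiples of 1 step (100% whole within 0.01), so the authors' table holds read counts divided by a factor per library, and counts were recovered from it. The genome build of the files is therefore unknown, and the coordinates and promoter sequences printed come from RefSeq on GRCm38.p6, where all 8 genes matched.

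From these values, log2(value + 1) was fitted for 16577 genes (at least 10 in at least 3 libraries) with limma 3.58.1 in 1 fit of all 12 libraries, with Benjamini-Hochberg adjustment over all genes of a comparison and a threshold of 0.05. Fold changes are on that scale and understate the change of low genes. Ratios within a library were tested by an exact two-sided permutation test of F over 369600 assignments of libraries to populations (smallest p 6.49e-05), adjusted over 6 ratios. Alternatives were other pseudocounts, filters, scalings and libraries left out, edgeR 4.0.16 and DESeq2 1.42.0 on the recovered counts, which called 7357 and 7714 genes in High against Low where limma called 7110, and the replicate letter as a block; the fit without the Sublow libraries was added after seeing the data. The fits were checked on simulated data. Intervals of differences are at 95%, and limits of 3 reads cover counting error only, since reads carry no molecular identifiers.

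The 8 genes and all lists were chosen with earlier results of these data known. Named besides them are the 3 genes most correlated with each over the 12 libraries (mean of at least 100, without predicted, histone and ribosomal genes), and in each pathway list the 2 largest rises and 2 largest falls past the threshold in High and in Negative against Low; partners named besides these were chosen for their role or after their values were seen. Levels per kilobase used GENCODE M21 exon lengths. Of 17 listed TET regulators, 15 matched the table by symbol. A few genes of the lists are counted but not reported by name here.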

Additional observations from a re-analysis of the deposited data

How the results depend on the processing

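Over the 48 gene and comparison pairs, 26 passed the threshold, 16 of them under every alternative, and 10 were lost under at least 1. Of the 22 that did not pass, 12 passed under at least 1 alternative, and no called difference changed sign. Median-of-ratios scaling, counted among the alternatives, gave the same calls and medians over all genes as the deposited scaling in every comparison. It repeats the main fit, and its agreement adds nothing. With the replicate block, High against Low had 5 of the 8 genes past the threshold, Sublow against Low 1, Negative against Low 6, High against Negative 4, Sublow against Negative 5 and High against Sublow 5, as without it, and 8027 genes of all instead of 7110 in High against Low. What libraries of 1 letter share is not stated in the labels. Their deviations from the population means correlated at 0.0521 to 0.341 (mean 0.156) over 18 pairs, 13 of them over 0.1. Libraries of 1 letter thus varied together to some degree. The mean of -0.0781 for different letters follows from taking deviations within each population and adds nothing. As the labels name no pairing, the letter entered only as a block alternative. In Sublow against Low, where 1 gene passed, 2 did with equal library totals, 2 with quantile scaling, 2 with DESeq2 and 5 with library weights. Over all genes these settings called 4569, 4065, 4755 and 7880. When 1 library was left out, 1 to 3 of the 8 genes passed. In High against Negative, where 4 passed, 2 did with quantile scaling and 6 with equal library totals, where 9640 and 10011 of all genes did. In Sublow against Negative 3 of 5 passed with quantile scaling, where 3162 of all genes did, and 3 to 6 when 1 library was left out. In a limma fit of the 6 libraries of that comparison alone 0 passed, and 46 of all genes did, against 4597. Over all genes edgeR called 3995 there and DESeq2 5330. The log2 ratio of Uhrf1 over summed S phase reference spanned 1.65 between its highest and lowest population means, and 1.35 to 1.91 with 1 library left out; 10 of those 12 fits missed the threshold, with adjusted p from 0.055 to 0.0724 by the exact permutation test. The cause of these changes was not tested, except that fewer libraries enter some fits. Over all genes, Sublow against Low called 3979, but 2473 with its 6 libraries alone, 7880 with library weights, 2520 without Low A and 2503 without Sublow B, and Sublow against Negative called 6939 with library weights, 2767 without Sublow A, 2188 without Sublow C and 1748 without Negative B. Equal library totals moved the share of higher among called genes from 55.3% to 28.6% in Sublow against Low, from 46.9% to 23.3% in Negative against Low, from 52.8% to 74.1% in High against Negative, from 54.4% to 86.3% in Sublow against Negative and from 51.3% to 63.2% in High against Sublow; in Sublow against Negative it was 64.6% with quantile scaling and 67.2% with edgeR. Relative to the median of all genes, Tet2 and Tet3 in Negative against Low were 0.35 and 0.14 with quantile scaling. With equal library totals they were 0.79 and 0.81, and on the deposited scaling 0.80 and 0.83. Depth limits Dnmt3b and Tet1 in Negative most, with 17 to 47 reads a library.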

Other observations

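Germline genes whose promoters are known to be silenced by DNA methylation gave few reads. Of 11 listed, 1 passed the filter on low values, Ddx4, a germ cell helicase. It held 68 of its 96 reads in the High libraries, at 20.1 ± 5.42 normalised counts there and 4.97 ± 1.93 in Low (SD, n = 3 each). Ddx4 passed the filter through the High libraries alone, so its log2 difference of 1.84 is given without a test. Its Low mean lay near the worth of 3 reads, 2.38 to 4.61 normalised counts. The other 10, among them Dazl (21 reads in all 12 libraries together), Sycp3 (43), Mael (9) and Tex101 (7), did not exceed 11.6 normalised counts in any library. They were not tested.

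Counts of the CG pair in the RefSeq promoter windows of 300 bases set Tet2 apart among the 8 genes. Its window held 57, more than 99.8% of 32851 windows, where the median window held 7. The 3 windows of Dnmt3a held 46, 47 and 18, and those of Tet1, Tet3, Tdg and Dnmt3b 17, 22, 26 and 30. Dnmt1 and Uhrf1 each had a window with 33, the same one that held the E2F word. These are letters of the reference and not measurements of methylation, which the libraries did not measure.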
